A study of Anas platyrhynchos with 2 samples.

Results

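The 34 predicted duck miRNAs described here are the rows of a duodenal miRNA table that carry the name novel_ and a number and no chicken miRNA name. They were taken by name from the 288 mature miRNAs of the table. Of its 42 predicted rows, 8 were set aside by name (novel_1, novel_27, novel_36, novel_40, novel_67, novel_113, novel_163 and novel_168), and the other 246 rows carry chicken names. The rule used names alone, but it was set with earlier results of these data known. The 8 rows set aside were abundant, from rank 1 (novel_1) to rank 10 (novel_67) of the 42 by mean CPM. The working description of the 34 is that they lack a conserved identity. The sequences went against it for 5 of them, whose hairpins share long stretches with chicken hairpins of the same table. For the other 29 it was not tested beyond this table, since no miRNA database was used.

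The study sequenced small RNA from the duodenum of Jingjiang ducks, all female and 1 day old, of which 20 were split into 2 groups. Both groups were kept in poultry carrying cases, and the transported group was then driven for 8 h at speeds between 40 and 70 km/h, while the control group stayed in place. Per the labels, the control tissue was normal duodenum and the transported tissue had mucosal damage. Each group gave 1 library, and the number of ducks pooled in it is not stated. The libraries are named CC and CT. The last letters were read as control and transported, which no label spells out, so directions are given as CT against CC and would reverse relative to transport if that reading were wrong.

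A miRNA is cut from a transcript that folds back on itself into a hairpin. The enzymes Drosha and Dicer release a short duplex from its stem with a small overhang at each 3′ end, and a strand of this duplex, from the 5p or the 3p arm, guides Argonaute to messenger RNAs through its seed, the bases near its 5′ end. Prediction programs look for reads that stack on a genomic sequence able to fold in this way, and degradation fragments of other RNAs can meet the same criteria. The epithelium of the duodenum absorbs nutrients above a wall of smooth muscle, connective tissue, nerves and blood vessels, and a bulk library mixes all of them.

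The table held 5772509 counts in CC and 5272666 in CT. With 1 library per group there is no replicate check and no p-value, and all intervals are exact 95% intervals that cover counting error only. Levels are in CPM, counts per 1000000 counts of the library. Of 3 markers of intestinal epithelium looked for by name, miR-215-5p and miR-194 matched and summed to 438810 CPM for CC and 485270 for CT. All 5 pancreatic markers matched (miR-216a, miR-216b, miR-216c, miR-217-5p and miR-375), with miR-216c at 0 counts in CC, and summed to 1260 CPM for CC and 5920 for CT. Other markers had lower levels, with the red blood cell pair miR-451 and miR-144-3p at 3.29 and 1.90 CPM in sum and the liver miRNA miR-122-5p at 209 and 207 CPM. Of the 3 muscle markers looked for, only miR-133a-3p matched by name, at 788 and 708 CPM. Muscle rows outside that list, named after their values were seen, reached higher levels. miR-1a-3p had 5128 CPM for CC and 3832 for CT, and miR-1b-3p had 2820 and 1963. miR-143 and miR-145 were looked for by name alone, which does not show that they were low, since abundant rows carry novel_ names, such as novel_1, set aside here, with 163896 CPM for CC and 109894 for CT.

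The mature sequences that carry most of the counts are printed first, 5′ to 3′, with the seed (bases 2 to 8) in capitals.
novel_30: aGGACUGUcuaaccugagaaug
novel_31: aAUGACACgaucacucccgcugagc
novel_112: uUAGUGCGcaguaagcuagggug
novel_130: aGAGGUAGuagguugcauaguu
These 4 sequences have 4 different seeds. All 4 lie on the 5p arm, as do 20 of the 34, against 14 on the 3p arm.

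Their hairpins follow as the table gives them, with the mature sequence in capitals, to show where it sits.
novel_30: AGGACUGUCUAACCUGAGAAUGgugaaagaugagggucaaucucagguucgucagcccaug
novel_31: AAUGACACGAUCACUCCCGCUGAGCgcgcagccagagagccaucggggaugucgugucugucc
novel_112: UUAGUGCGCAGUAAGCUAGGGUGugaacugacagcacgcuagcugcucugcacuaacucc
novel_130: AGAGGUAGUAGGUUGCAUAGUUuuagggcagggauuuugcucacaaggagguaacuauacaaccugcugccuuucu
The mature sequence stood at the very end of the listed hairpin in all 34. The listed sequence is thus the span from 1 arm to the other, and the scaffold positions are wider, 108 to 114 bases against hairpins of 41 to 77. The file names no genome build. As it gives them, novel_30 lies at KB744325.1:357329-357440 on the minus strand, novel_31 at KB744074.1:1109814-1109927 on the minus strand, novel_112 at KB742659.1:1367696-1367807 on the plus strand and novel_130 at KB742849.1:550961-551068 on the plus strand. No annotation of that build was used, so it is not stated whether they lie in genes.

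Nearly all reads of the 34 came from a pair of rows. novel_30 had 4022 counts in CC and 2961 in CT, and novel_31 had 3958 and 2736. Together they held 96.2% of the counts of the 34 in CC (interval 95.8 to 96.6%) and 95.7% in CT (95.2 to 96.2%). They ranked 47 and 50 among all 288 rows by mean CPM, and 4 and 6 among the 42 predicted rows. The next was novel_112, with 138 counts in CC and 94 in CT, at rank 117. It was followed by novel_130, with 31 and 52 counts, at rank 140. No other row of the 34 had more than 28 counts over both libraries.

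The 34 took a small share of each library. They summed to 8294 counts in CC, or 0.144% of the library (0.141 to 0.147%), and to 5953 in CT, or 0.113% (0.110 to 0.116%). The 8 predicted rows set aside by name held 1006164 and 632506 counts, so the bulk of predicted reads lies outside the rows described here. All 8 reached 50 counts in each library. Setting them aside thus lowers the median and the shares given here, relative to all predicted rows. The median of the 34 was 9 counts over both libraries, against 109 for the chicken-named rows. At least 50 counts were reached by 4 of the 34 (11.8%) and by 137 of the 246 chicken-named rows (55.7%).

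**Figure D1:**
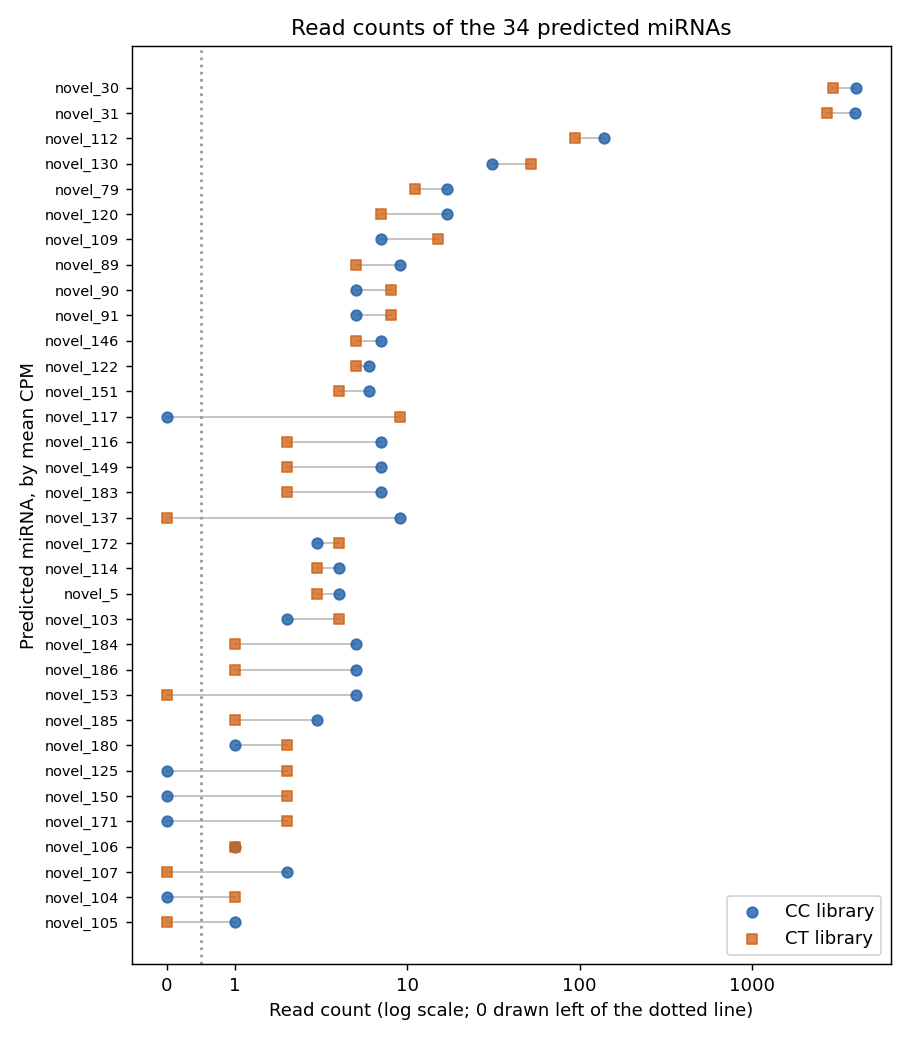
Read counts of each of the 34 predicted miRNAs in the CC library (circles) and the CT library (squares) on a log scale, with counts of 0 drawn left of the dotted line and rows ordered by mean CPM. novel_30 and novel_31 stand apart at 2736 to 4022 counts, and 30 of the 34 have at most 28 counts over both libraries.

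Most of the 34 were detected in both libraries, but at a handful of reads. A read was seen for 29 of them in CC and for 30 in CT, and for 25 in both. With at least 3 counts the numbers were 24 and 18, and with at least 10 counts 6 and 6. Of the 246 chicken-named rows, a read was seen for 233 in CC and 233 in CT. At least 3 counts were reached by 192 and 201 of them, and at least 10 by 164 and 164. At 3 counts the chicken-named rows were thus detected more often in CT, and the 34 more often in CC. This contrast was not seen at 1 count or at 10 counts, and the groups of rows are not matched on depth. Taken as 3 counts, the limit that a count of 0 leaves was 0.520 CPM for CC and 0.569 for CT. Reads below that limit were seen for some rows, so a 0 does not show that a row was absent.

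The rows seen in a single library were all at low counts. Those seen only in CC were novel_137 with 9 counts, novel_153 with 5, novel_107 with 2 and novel_105 with 1. Those seen only in CT were novel_117 with 9 counts, novel_125, novel_150 and novel_171 with 2 each, and novel_104 with 1. In all 9 of the 34 (26.5%) were seen in 1 library, against 26 of 246 chicken-named rows (10.6%). Among rows with 1 to 10 counts over both libraries, however, the shares were 9 of 22 (40.9%) and 25 of 64 (39.1%), close to each other.

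Among the single-library rows, the intervals of novel_117 and novel_137 excluded a ratio of 1. Their sequences are shown with the seed in capitals, since they alone among the 30 rows under 50 counts had such an interval.
novel_117: aACCUGCUgagagugaaauuga
novel_137: gAGAUUUCcugagcuuuguuug
With the empty library set to the floor of 3 counts, novel_117 was 3.28-fold higher in CT and novel_137 was 2.74-fold lower. The exact intervals, which also cover counting error in the 9 reads of each, allow less, down to 2.16-fold higher for novel_117 and 1.80-fold lower for novel_137. Of the 139 rows of the table under 50 counts, 6.47% had an interval that excluded a ratio of 1. Of the 30 such rows among the 34 there were 2, a share close to that of the table. For novel_153, whose 5 counts were all in CC, the interval of the ratio of CT to CC reached up to 1.19 and included equality.

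The sequences of 5 rows had a close counterpart among the chicken-named rows. The longest stretch that the hairpin shares with any chicken hairpin was 66 of 76 bases for novel_130 (let-7d), 34 of 65 for novel_146 (miR-16c), 28 of 64 for novel_153 (miR-184), 27 of 60 for novel_112 (miR-1552) and 25 of 60 for novel_5 (miR-146b). In the remaining 29 this stretch was 8 to 11 bases. This split was drawn after the values were seen, at 20 bases, and it is a description. In 27 of the 34, neither the seed nor 16 contiguous bases matched a chicken-named row. novel_30 and novel_31 are among these 27. The comparison covered the chicken-named rows of this table and no miRNA database, so known miRNAs that the table does not list could not be recognised, and whether novel_30 and novel_31 belong to a known family was not tested.

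**Figure D2:**
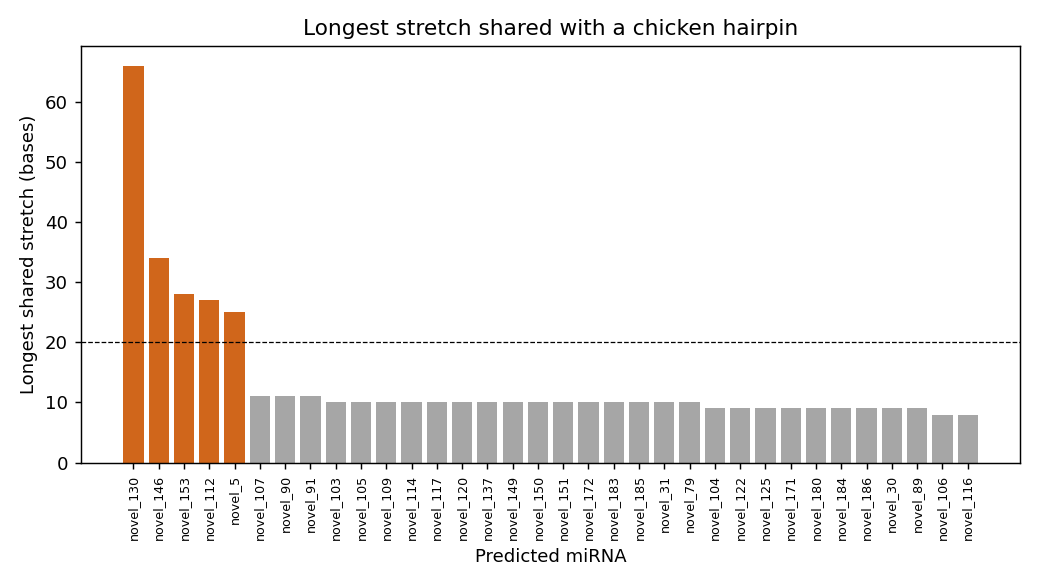
Longest contiguous stretch, in bases, that the hairpin of each of the 34 predicted miRNAs shares with any chicken hairpin of the table, with the dashed line at 20 bases. The 5 darker bars reach 25 to 66 bases and the other 29 reach 8 to 11.

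In novel_112 and novel_130, the duck sequence differed from the chicken sequence by a single base and held the reads, while the chicken-named row was nearly empty. The sequences are set beside each other with the seed in capitals.
novel_112: uUAGUGCGcaguaagcuagggug
gga-miR-1552-5p: uUAGUGCGcgguaagcuagggug
novel_130: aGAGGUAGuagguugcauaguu
gga-let-7d: aGAGGUAGuggguugcauagu
gga-let-7a-5p: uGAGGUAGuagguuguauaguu
Counting from 1 at the 5′ end, with the chicken base first, novel_112 differs from miR-1552-5p by G10A over 23 bases, outside the seed. novel_130 differs from let-7d by G10A over 21 bases, again outside the seed, and is 1 base longer at the 3′ end. Against let-7a-5p it differs by U1A and U16C. miR-1552-5p had 1 count in CC and 0 in CT, where novel_112 had 138 and 94. let-7d, of the let-7 family that promotes differentiation and developmental timing, also had 1 count in CC and 0 in CT, where novel_130 had 31 and 52.

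The other 3 counterparts were the chicken-named sequence with an added base at the 3′ end.
novel_146: uAGCAGCAcguaaauacuggagu
gga-miR-16c-5p: uAGCAGCAcguaaauacuggag
novel_5: uGAGAACUgaauuccauaggcgu
gga-miR-146b-5p: uGAGAACUgaauuccauaggcg
novel_153: uGGACGGAgaacugauaagggua
gga-miR-184-3p: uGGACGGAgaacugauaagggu
Each holds all 22 bases of its counterpart and 1 more. In these pairs the chicken-named row held the reads. novel_146 had 7 counts in CC and 5 in CT, beside 3686 and 3391 for miR-16c-5p, of the miR-15 and miR-16 family that restrains the cell cycle. novel_5 had 4 and 3 counts, beside 89957 and 51724 for miR-146b-5p, of a family induced by NF-kB that dampens inflammatory signalling. novel_153 had 5 and 0 counts, beside 123 and 35 for miR-184-3p. The hairpin of novel_146 also holds the whole sequence of miR-16c-3p, and that of novel_5 the whole of miR-146b-3p. How the authors divided reads between such overlapping sequences is not stated, so these rows and their counterparts cannot be taken as separate measurements.

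A further 2 rows shared only the seed with chicken-named rows. novel_79, with 17 counts in CC and 11 in CT, has the seed of miR-19a-3p and miR-19b-3p, members of the proliferation-linked miR-17 and miR-92 cluster, and its longest stretch in common with each is the 7 bases of the seed.
novel_79: aGUGCAAAggcagcucaugcucu
gga-miR-19b-3p: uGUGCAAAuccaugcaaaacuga
The other, novel_106, with 1 count in each library, has the seed of miR-128-1-5p and miR-128-2-5p. A shared seed of 7 bases is a description of the letters and says nothing of shared targets here.

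novel_90 and novel_91 share a hairpin. Their listed hairpin sequences are identical, and their mature sequences differ in that novel_90 is a base longer.
novel_90: gCAAGUGGacugcucucuuuga
novel_91: gCAAGUGGacugcucucuuug
Both had 5 counts in CC and 8 in CT. They lie on different scaffolds, at KB744656.1:252794-252904 and KB742503.1:882206-882316, both on the plus strand. Whether the same reads were listed under both was not tested. The 34 rows thus hold 33 distinct hairpins and 33 distinct seeds.

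Few rows shared a scaffold. The 34 lay on 33 scaffolds, 22 on the plus and 12 on the minus strand. novel_186, at KB744353.1:9398-9508, and novel_180, at KB744353.1:350943-351052, are both on the plus strand with 341434 bases between them. novel_186 had 5 counts in CC and 1 in CT, and novel_180 had 1 and 2. novel_146 shared the plus strand of KB743532.1 with novel_163, a predicted row outside the 34, with 94580 bases between them. novel_163 had 17098 and 15200 counts, and novel_146 had 7 and 5. No scaffold held hairpins of the 34 within a few kilobases of each other. Hairpins of 3 rows started within the first 500 bases of their scaffold, namely novel_106 at base 12, novel_122 at base 240 and novel_150 at base 411.

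CT was set against CC for the 4 rows that reached 50 counts over both libraries. Of these, 3 were lower and 1 higher in CT. novel_30 had a level of 697 CPM for CC against 562 for CT, 1.24-fold lower (interval 1.18 to 1.30). novel_31 had 686 CPM against 519, in the same order, 1.32-fold lower (1.26 to 1.39). The intervals of this pair overlap. Within CC, novel_30 held 1.02 times the counts of novel_31 (0.972 to 1.06), and within CT 1.08 times (1.03 to 1.14).

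The less abundant rows went in opposite directions. novel_112 had 23.9 CPM against 17.8, again CC before CT, 1.34-fold lower (1.02 to 1.76). novel_130 had 5.37 CPM against 9.86, 1.84-fold higher (1.16 to 2.96). The 7 let-7 rows with the seed of novel_130 and at least 50 counts had log2 ratios of -0.36 to 0.09, with 2 higher and 5 lower in CT. Their levels were 682 to 12913 CPM in CC, far above novel_130, whose log2 ratio was 0.88 (0.21 to 1.57). let-7a-5p, which differs from novel_130 at 2 bases, had 29309 counts in CC and 25794 in CT.

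None of the 4 was at least 2-fold apart, against 7.38% of the 149 rows of the table with at least 50 counts. All 4 had intervals that excluded a ratio of 1 with the full totals, where 68.5% of the 149 did. For novel_112 this was narrow, with an upper limit of -0.03 in log2. Totals without the 10 most abundant rows move log2 ratios by 0.06, enough for its interval to include equality. With 3 of the 4 below and 1 above at the full totals, the background was 33.6% below and 34.9% above. At 1.5-fold, novel_130 passed as higher, where 14.8% of the 149 did, and none was lower by that much, where 7.38% were. The median log2 ratio of the 4 was -0.36, and over the 148 rows with at least 50 counts and a count in each library it was 0.02 (interquartile range -0.25 to 0.34). The summed level of all 34 was 1.27-fold lower in CT (1.23 to 1.32), which novel_30 and novel_31 set. Over the 30 rows under 50 counts the sums were 145 and 110 counts, 1.20-fold lower with an interval of 0.933 to 1.56 that includes equality. The sum of the pancreatic markers was 4.70-fold higher in CT and that of the epithelial markers 1.11-fold higher. The pancreatic sum pools markers whose single ratios are not given here, so its ratio need not hold for each of them. Most of the epithelial sum was miR-215-5p, with 405612 CPM for CC and a ratio of CT to CC of 1.07. For miR-194, with 33198 CPM for CC, the ratio was 1.51, so the sum hides the larger difference in this marker. In the direction of novel_30 and novel_31, the ratio of CT to CC was 0.898 for miR-133a-3p (0.860 to 0.938). It was 0.747 for miR-1a-3p (0.734 to 0.761), 0.696 for miR-1b-3p (0.679 to 0.714) and 0.921 for miR-133c-3p (0.822 to 1.03). The last interval includes equality, as does that of miR-133b, which went the other way at 1.33 (0.994 to 1.77). novel_1, set aside by name, was 1.49-fold lower in CT. For novel_113, also set aside, the ratio was 0.975 (0.961 to 0.990). The red blood cell pair had a ratio of 0.576 at under 4 CPM, with no interval computed. For miR-122-5p it was 0.992 (0.913 to 1.08), an interval that includes equality. The part of any of these in the ratios was not tested. In a bulk library fewer cells of a type and less RNA per cell cannot be told apart.

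**Figure D3:**
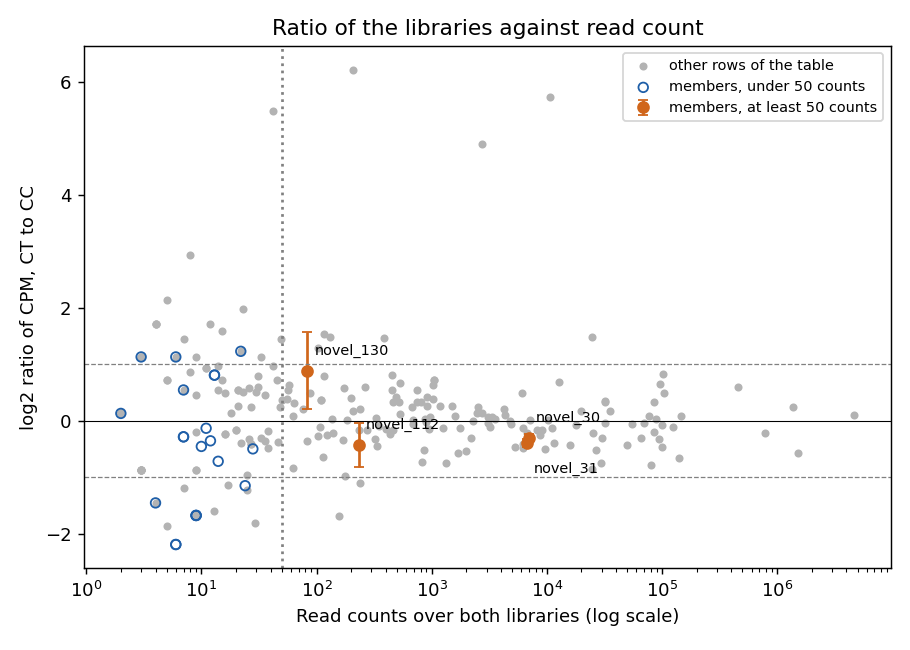
The log2 ratio of CPM (CT to CC) against read counts over both libraries (log scale), for rows of the table with a count in each. Filled darker points with exact 95% counting intervals are the 4 predicted miRNAs with at least 50 counts, open circles are those under 50 counts, grey points are the other rows, and dashed lines mark 2-fold. The 4 lie between -0.42 and 0.88, inside the dashed lines, and the open circles spread to -2.19 at 6 counts.

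Below 50 counts the ratios were too wide to read. Of the 25 rows of the 34 with a count in each library, 10 passed 2-fold, 3 of them higher in CT and 7 lower, where 18.2% of the 253 such rows of the table were. These shares are not matched on depth, since 148 of the 253 had at least 50 counts, against 4 of the 25. All 10 have at most 24 counts, and each of their intervals includes a ratio of 1. novel_120 had 17 counts against 7, CC before CT, and was 2.22-fold lower with an interval of 0.874 to 6.33. novel_109 had 7 against 15 and was 2.35-fold higher with an interval of 0.900 to 6.80.

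Both hairpins of lowest folding energy had at most 2 counts. The abundant pair novel_30 and novel_31 lay above the median energy, and the less abundant novel_112 and novel_130 below it. The deposited energies of the 34 hairpins ran from -47.8 to -12.3 with a median of -26.75, where a lower value means a more stable fold; the file names no unit. The lowest were those of novel_104 (-47.8) and novel_106 (-42.3), which had 1 and 2 counts over both libraries. The highest were those of novel_183 (-12.3) and novel_172 (-17.7), which had 9 and 7 counts. Other rows with 1 or 2 counts over both libraries lay nearer the median energy, from -29.1 (novel_107) to -23.3 (novel_150). The mature sequences of the extremes are shown with the seed in capitals.
novel_104: cGGGGACAccgugguggcagca
novel_106: uGGGGCCGgagccgccucccgc
novel_172: uCUGGCGGugcugauuuccugc
novel_183: gGCCUGGGggcuguuuuu
Both hairpins of lowest energy were rich in G and C, at 73.8% for novel_104 and 82.5% for novel_106, against a median of 49.6% over the 34. Of the rows with at least 50 counts over both libraries, novel_30 lay at -21.62 and novel_31 at -25.3, followed by novel_112 at -27.4 and novel_130 at -31.5.

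Across the 34 rows, which are not independent replicates and share both libraries, the Spearman correlation of energy with log2(mean CPM + 1) was 0.15 and the Pearson correlation 0.15. The 17 rows of lowest energy (-47.8 to -26.8) had a median of 7 counts over both libraries and the other 17 (-26.7 to -12.3) a median of 9, with 2 rows of at least 50 counts on each side. With energy per base of hairpin the Spearman correlation was 0.19, and among the 13 rows with at least 10 counts it was -0.13. It was 0.05 with abundance in CT only and 0.08 without novel_30, the most abundant of the 34.

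**Figure D4:**
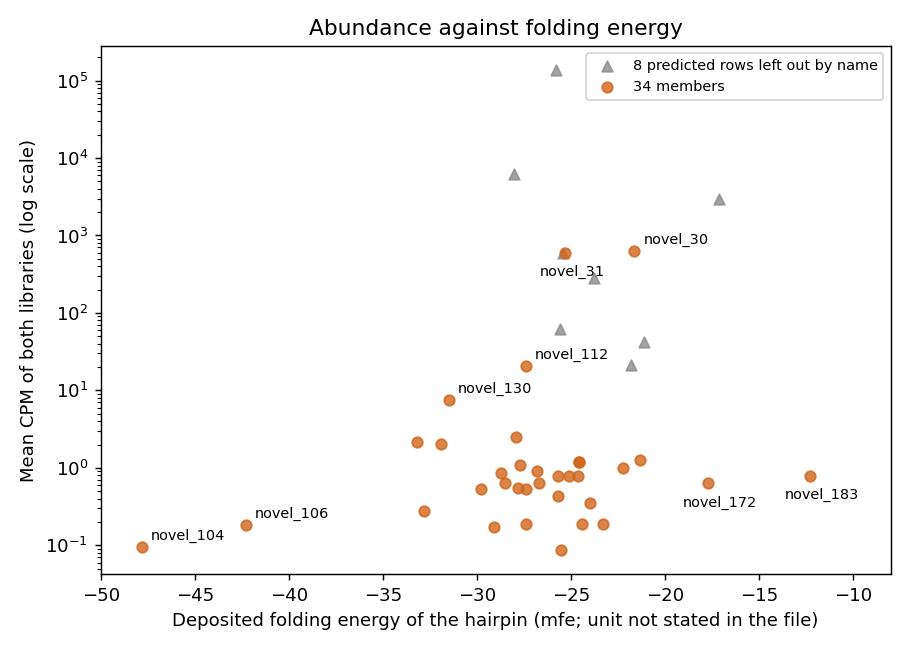
Mean CPM of both libraries (log scale) against the deposited folding energy of the hairpin, for the 34 predicted miRNAs (circles) and the 8 predicted rows set aside by name (triangles). The most stable hairpins, novel_104 and novel_106, have 1 and 2 counts, and novel_30 and novel_31 at 629 and 602 CPM lie at -21.62 and -25.3.

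Most of the hairpins lay within the range of chicken hairpins in energy. They were refolded with RNAfold beside 79 chicken hairpins of the table cut to the span between their listed arms. The refolded energies of the 34 had a median of -26.6 kcal/mol (-47.6 to -12.9), and those of the chicken hairpins -24.1 kcal/mol (-37.9 to -15.6). novel_104 and novel_106 lay below all 79 and novel_183 above all 79. The refolded energy was within 1 of the deposited value for 25 of the 34. A 3′ overhang of 2 bases at the base of the stem, the usual product of the processing enzymes, was found in 22 of 34 (64.7%) and in 50 of 79 chicken hairpins (63.3%). Whether the prediction required this geometry is not stated. No mature sequence of the 34 paired with itself, and in 31 of 34 at least 14 of its bases were paired with the opposite side. The prediction may have required such pairing, which is not stated, and no chicken value is set beside it.

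**Figure D5:**
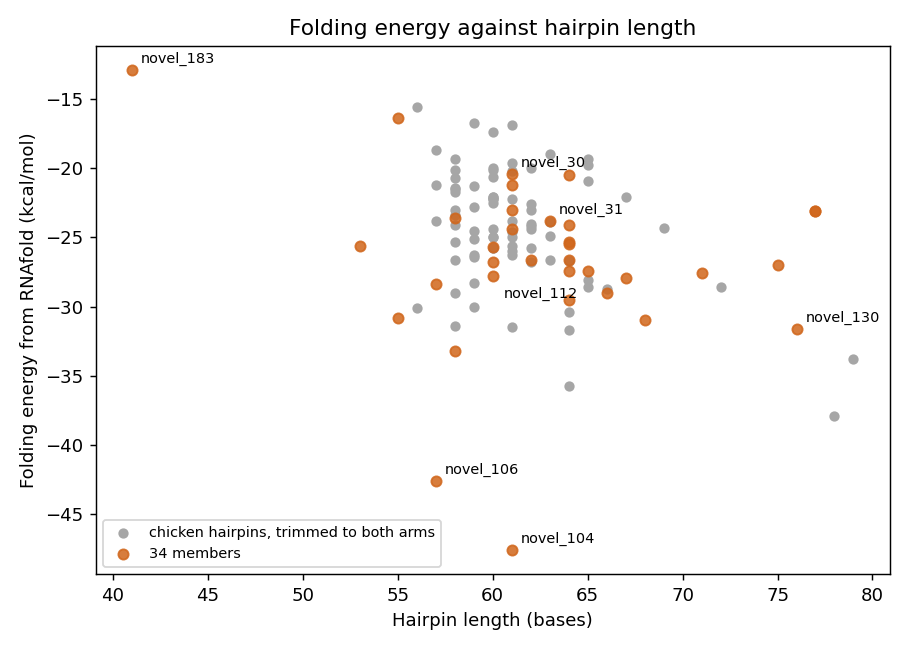
RNAfold energy in kcal/mol against hairpin length in bases for the 34 predicted hairpins (darker points) and 79 chicken hairpins cut to the span between their arms (grey). Most of the 34 lie among the grey points, with novel_104 and novel_106 below all of them at -47.6 and -42.6 and novel_183, of 41 bases, above all of them at -12.9.

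The mature sequences had the length of chicken-named ones and a higher median share of G and C, with no test of either. Their length had a median of 22 bases (18 to 25), the same median as the chicken-named rows (17 to 28), and 79.4% against 86.6% were 21 to 23 bases long. U, the first base that Argonaute proteins favour along with A, opened 13 of 34 (38.2%) and 112 of 246 chicken-named rows (45.5%). A opened 13 of 34 (38.2%) and 63 of 246 (25.6%). The share of G and C had a median of 51.1% over the 34 and 44.2% over the chicken-named rows. The 5 rows with a chicken counterpart were picked for shared sequence, which largely sets these traits. Of them, all 5 were 21 to 23 bases long, 4 began with U and the median share of G and C was 43.5%. The 27 rows with neither a chicken counterpart in this table nor over 28 counts had 21 in that length range, 9 that began with U and a median of 52.2%. These 27 summed to 129 counts in CC and 102 in CT, and 8 of them were seen in a single library. They are not the same 27 as those without a shared seed or stretch. They include novel_79 and novel_106, which share a seed, and leave out novel_30 and novel_31.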

How the data were processed

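Trizol RNA was used; 20 to 30 nt fragments were cut from a 15% gel loaded with 10 µg, and Illumina libraries were made, per the labels' protocols. The authors deposited read counts and TPM per mature miRNA, per the file headers. The deposited TPM equal counts per 1000000 counts of the table within 4.3e-05 and are called CPM. The deposited folding energies have no stated unit. No aligner, predictor or build is given in the sources used here.

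Ratios carry exact conditional (Clopper-Pearson) 95% intervals, which assume independent counts and cover counting error only. No molecular identifiers are mentioned, so repeated reads of the same molecule could not be told apart, and the intervals do not cover them. The totals were 5772509 (CC) and 5272666 (CT) counts, and 1 count is 0.173 and 0.190 CPM. With 1 library per group no test was run. The minimum for ratios was 50 counts over both libraries and the rule of size 2-fold. Named rows were those with at least 50 counts, novel_30 and novel_31, those sharing a scaffold, a seed or 16 bases, energy extremes and those at 0 counts in a library. Rows of the 34 named beyond this are novel_109 and novel_120, chosen after their values were seen, and novel_122, named for its scaffold position. Members and lists were chosen with earlier results of these data known. Marker names miR-192, miR-143 and miR-145 matched no row. Structures came from RNAfold 2.7.2, scaling alternatives from edgeR 4.0.16 and DESeq2 1.42.0 (R 4.3.3), the rest from Python 3.11.15 with numpy 2.4.6, scipy 1.17.1, pandas 2.3.3 and matplotlib 3.10.9. The intervals were tried on simulated counts with counting error only, for rows with at least 50 counts. This checks their calculation and says nothing of variation between libraries or of rows under 50 counts.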

Additional observations from a re-analysis of the deposited data

How the results depend on the processing

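No paired analysis was possible because each group has 1 library. Counting novel_90 and novel_91 once and leaving out the 4 well-counted rows from the energy correlation were chosen after seeing the data. Detection was 29 of the 34 in CC and 30 in CT with at least 1 count; it was 18 in CT with at least 3 counts, and 6 in CC and 6 in CT with at least 10. The summed share was 0.948% in CC and 0.777% in CT of totals without the 10 most abundant rows, 17.6% and 12.1% for all 42 predicted rows, and 0.0740% and 0.0567% without novel_30. It was lower in CT in each case. The number at least 2-fold apart was 0 of 4. It became 10 of 25 with no minimum and a count in each library, and 2 of 7 with at least 20 counts. With the 1.5-fold rule it was 1 of 4. Weaker limits admit more rows, and no share over all rows was computed at 20 counts. Either scaling factor, the reduced totals, a minimum of 500 counts and a pseudocount of 5 CPM left the number at 0. The median log2 ratio stayed below 0, at -0.36 as reported and -0.13 over the 12 of all 42 predicted rows with at least 50 counts. The direction of novel_30, novel_31, novel_112 and novel_130 held under the alternatives run for them. TMM factors moved all log2 ratios by -0.05, median-of-ratios factors by -0.06 and the reduced totals by 0.06. With the reduced totals the interval of novel_112 would include a ratio of 1. The Spearman correlation of energy with abundance was 0.27 over all 42 predicted rows and -0.13 among the 13 with at least 10 counts, against 0.15; the cause was not tested. Depth limits every statement on rows under 50 counts.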
